A study of Mus musculus with 20 samples.

Results

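The cytosolic ribosomal protein genes examined here are the 83 protein-coding mouse genes whose symbol follows the numbered Rpl, Rps or Rplp series, together with Rpsa, out of 30265 genes in the count tables. Ribosomal protein pseudogenes and the Rps6k kinases were left out, and 5 further symbols of the same form were dropped because the annotation does not class them as protein-coding. 51 of the genes encode proteins of the large subunit and 32 proteins of the small subunit, and 81 had a count in all 20 libraries. Single genes were chosen by symbol, and the family as a whole was chosen on its share of counts in these libraries, which differed between the embryo groups. That share, and the values of its genes between embryo groups, are therefore given as a description: where counts of calls are printed, the share called over all genes stands beside them and nothing is read from them.

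The study sequenced polyadenylated RNA from mouse embryonic stem cells (ESCs, pluripotent cells taken from the blastocyst) and from single late blastocysts (E4.5). The ESCs came from C57BL/6J mice and were kept with LIF on irradiated embryonic fibroblasts, and 2 libraries were made from cells overexpressing GFP and 2 from cells overexpressing Klf5. The embryos came from mice that the labels write as C57BL/5J, were cultured in KSOM medium with albumin, and had been injected with a scramble siRNA (10 embryos) or with an siRNA against Klf5 (6 embryos), 1 library per embryo. The vector and promoter of the overexpressed genes, whether the ESC lines were clones, and the stage of injection are not given in the sources used here. Nothing in the labels tells whether the 2 ESC libraries of a group came from different cultures, so the ESC p-values are set against a spread that may be technical.

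A ribosome holds each of its core proteins once, so cells make these proteins from a large family of abundant, short messenger RNAs. Most of these messengers begin with a C followed by a run of pyrimidines, the 5′ terminal oligopyrimidine (TOP) motif, through which mTORC1 and the RNA-binding protein LARP1 control their translation and stability. A few genes have paralogs that replace the standard protein in some tissues, and the family has left many processed pseudogenes in mammalian genomes. Klf5 is a Krüppel-like zinc-finger transcription factor that takes part in ESC self-renewal and in the first lineages of the mouse blastocyst.

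Library totals, in units of 1e6 estimated counts, were 26.8 to 37.5 in ESCs and 14.7 to 24.9 in embryos, and levels are given as CPM (counts per 1e6 counts). A count of 3 was worth 0.0800 to 0.112 CPM in ESCs and 0.120 to 0.204 CPM in embryos, for counting error only. Klf5 transcript was at 80.4 and 70.8 CPM in GFP cells and at 942 and 881 CPM in Klf5-overexpressing cells (fitted log2 difference 3.59 ± 0.14 SE, adjusted p = 0.000323 by edgeR's quasi-likelihood test). In scramble embryos it ranged from 370 to 621 CPM. The embryos labelled Klf5 siRNA 1 to 6 held 538, 103, 205, 80.4, 114 and 296 CPM, so embryo 1 stood at the control level and the other 5 lay below every scramble embryo (log2 fold change −1.08 ± 0.33, edgeR adjusted p = 0.0282). Mitochondrially encoded genes took 0.623 to 0.810% of ESC counts, 4.34 to 18.5% in scramble embryos and 2.45 to 10.3% in Klf5 siRNA embryos. Scramble embryos 5 and 6 stood apart from the other 8, with the lowest mitochondrial shares of their group (4.34 and 5.48%) and the lowest ribosomal protein shares, and the embryo fold changes of the family, of Rpl22l1 and of the 4 related ribosomal proteins are given also without them and without Klf5 siRNA embryo 1.

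The annotated starts of some of these genes carry the feature that names the TOP class. Starts were taken from RefSeq (GRCm38.p6), which held 63 of the 83 genes in its promoter table. The sequences below run from 30 bases before to 20 bases from the annotated start, 5′ to 3′, and capitals mark a C with at least 4 pyrimidines after it that begins within 5 bases of that start. Rpl38, Rps6 and Rps27 are shown as standard members, and Rps27l, Rpl22l1 and Rpl39l as paralogs to which the results below return.
Rpl38: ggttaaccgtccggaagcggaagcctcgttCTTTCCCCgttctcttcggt
Rps6: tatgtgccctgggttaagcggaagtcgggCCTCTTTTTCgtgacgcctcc
Rps27: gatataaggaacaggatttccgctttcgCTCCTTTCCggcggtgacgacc
Rps27l: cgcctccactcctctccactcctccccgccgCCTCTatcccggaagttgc
Rpl22l1: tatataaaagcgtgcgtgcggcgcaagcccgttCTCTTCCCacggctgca
Rpl39l: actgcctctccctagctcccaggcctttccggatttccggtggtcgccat
These windows lie at chr11:114668550-114668599 on the plus strand (Rpl38), chr4:86857348-86857397 on the minus strand (Rps6), chr3:90213629-90213678 on the minus strand (Rps27), chr9:66946056-66946105 (Rps27l), chr3:28805478-28805527 (Rpl22l1) and chr16:10170198-10170247 (Rpl39l), the last 3 on the plus strand. Rpl38, Rps6 and Rps27 have tracts of 8, 10 and 9 bases that begin at the start or up to 2 bases before it. Rps27l has a tract of 5 bases and Rpl22l1 one of 8 bases that begins 3 bases after the annotated start, and in the Rpl39l window no such tract begins within 5 bases of the start.

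A C with at least 4 pyrimidines after it began exactly at the annotated start in 13 of 63 genes (20.6%), against 3.01% of 27025 mouse genes in the same table. Within 5 bases of the start it was found in 29 of 63 (46.0%), against 21.2%. In the 300 bases around the start (250 before and 50 after), searched on both strands, the ETS-type motif CCGGAAG was found in 41.3% of the ribosomal protein genes against 9.93% of all genes, and the palindrome TCGCGA in 22.2% against 2.86%. GGGCGG, the GC box that Sp and Krüppel-like factors bind, was found in 61.9% against 38.2%, and the Krüppel-type CACCC box CACACCC in 4.76% against 9.05%. TATAAA was found in 11.1% against 15.7%, and the YY1-type AGATGGC in 12.7% against 7.31%. These are matches of letters in annotated windows, and binding was not measured.

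Ribosomal protein genes took a larger share of counts in ESCs than in scramble embryos, and on average a larger share in Klf5 siRNA than in scramble embryos. ESC and embryo libraries were made with different kits, so cell source and kit cannot be told apart. With counts taken per kilobase of transcript, mean shares were 26.8% with GFP and 25.3% with Klf5. They were 11.6% in scramble and 17.3% in Klf5 siRNA embryos. The 83 genes together held 13.1 and 12.0% of counts in the GFP libraries and 10.7 and 12.0% in the Klf5-overexpressing libraries, so that the ESC groups met at 12.0%. Scramble embryos ranged from 3.86% to 9.32% with a median of 7.16% (mean 7.00 ± 1.67 SD, n = 10). Klf5 siRNA embryos 1 to 6 held 14.1, 10.5, 7.85, 9.24, 13.0 and 10.9% (mean 10.9 ± 2.32 SD, n = 6). 4 of the 6 lay above every scramble embryo, and embryos 3 and 4 fell within the scramble range. The highest share belonged to embryo 1, the embryo with control-level Klf5. Group means leaving out 1 embryo at a time were 10.3 to 11.5% for Klf5 siRNA and 6.74 to 7.35% for scramble.

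**Figure D1:**
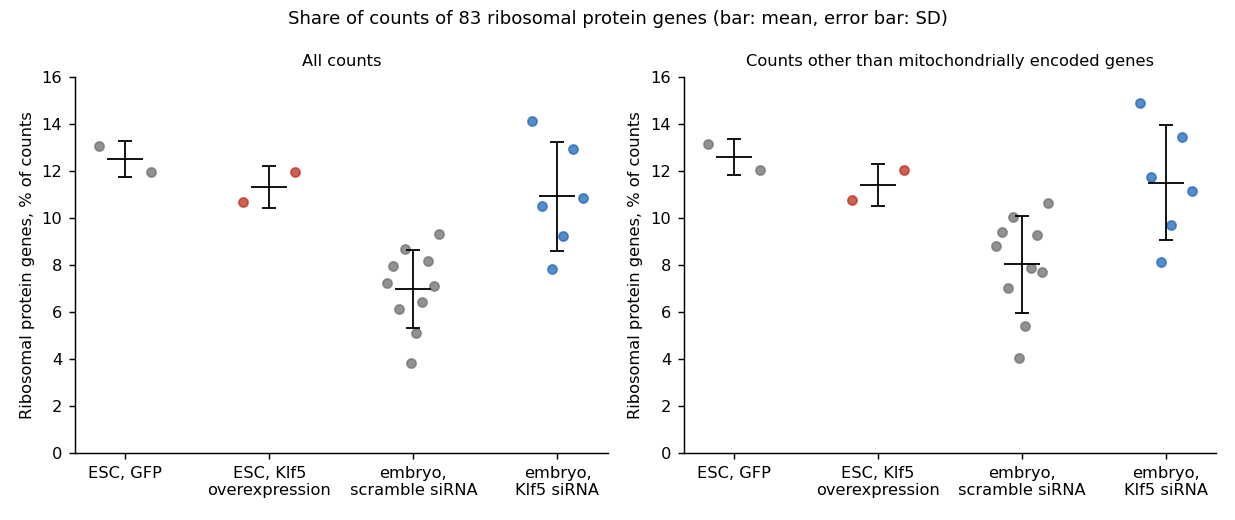
Percentage of estimated counts on the 83 ribosomal protein genes in each of the 20 libraries (points), with group mean (bar) and SD (error bar), over all counts at left and over counts of genes not encoded by mitochondria at right. Both panels show scramble embryos lowest, with 7.00% of all counts on average, and an overlap between the 2 embryo groups.

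The shares of mitochondrial and ribosomal protein counts are parts of 1 total. Over counts of nuclear genes, the share was 8.03 ± 2.08% in scramble embryos (4.04 to 10.7%) and 11.5 ± 2.46% in Klf5 siRNA embryos (8.14 to 14.9%), and the groups overlapped again. In the 2 scramble embryos with the lowest mitochondrial shares the ribosomal protein share was 3.86 and 5.11%. Large-subunit genes held 3.81 ± 0.86% of counts in scramble embryos and 6.14 ± 1.34% in Klf5 siRNA embryos, and small-subunit genes 3.19 ± 0.83% and 4.79 ± 0.98%. The ratio of large-subunit to small-subunit counts was 1.42 to 1.43 in all 4 ESC libraries. In embryos it was more variable, at 1.10 to 1.37 in scramble and 1.18 to 1.35 in Klf5 siRNA. In bulk samples such as these, fewer cells of a type and less RNA per cell cannot be told apart.

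Levels of different genes were compared as CPM per kilobase of transcript, using the shortest principal transcript of each gene in the GENCODE M21 annotation. In GFP cells the highest genes were Rplp1 at 11783 CPM per kilobase, Rps2 at 8140, Rpl41 at 6989 and Rplp2 at 6564. Rplp1 and Rplp2 encode the acidic proteins of the ribosomal stalk, Rps2 a core protein of the small subunit and Rpl41 the shortest protein of the ribosome. The lowest were Rpl3l at 2.47, Rpl39l at 6.27, Rps12 at 6.55 and Rpl10l at 20.8. Rpl3l, Rpl39l and Rpl10l are paralogs known from striated muscle or the male germ line. In scramble embryos Rpl41 stood highest at 6763 CPM per kilobase, followed by Rps29 at 5009, Rps27l at 3919 and Rps14 at 3875. The lowest genes past the filter on low counts were Rpl5 at 34.9, Rpl12 at 68.3, Rpl10l at 69.8 and Rpl7l1 at 115. The 10 genes with the most counts held 36.4% of all ribosomal protein counts in GFP cells and 26.6% in scramble embryos, and 17 and 25 genes were needed to reach 50%. The order depends on annotated transcript lengths. Rps20 ranked 67 of 83 in GFP cells per kilobase of its 3706-base transcript and 15 per kilobase of coding sequence.

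**Figure D2:**
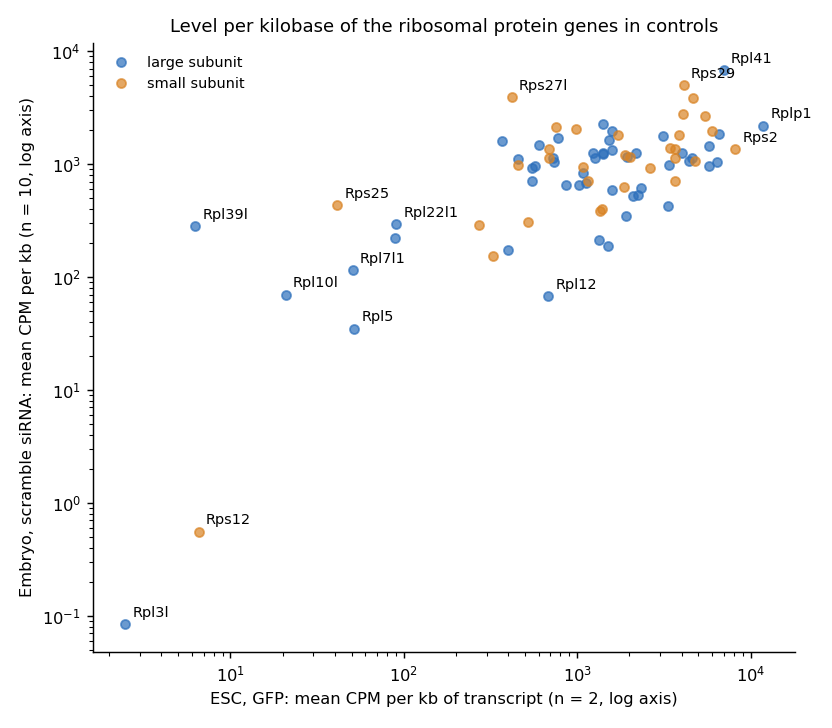
Level of each ribosomal protein gene in CPM per kilobase of transcript, in ESCs with GFP (x axis, mean of 2 libraries) and in scramble siRNA embryos (y axis, mean of 10 libraries), both on log axes, with large-subunit genes in blue and small-subunit genes in orange. Most genes form 1 cloud, while Rps27l, Rpl39l and Rps25 lie above it and Rpl3l, Rps12 and Rpl12 below.

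The family was not represented alike in the ESC and embryo libraries, which also differ in cell source and in library kit, and these cannot be told apart. Across the 83 genes the levels per kilobase in GFP cells and scramble embryos had a Spearman correlation of 0.53, given as a description. As a share of all ribosomal protein counts, Rpl39l was 84.5 times higher in scramble embryos than in GFP cells, Rps25 20.9 times, Rps27l 17.6 times and Rpl39 7.86 times. Rps25 held 25.4 and 22.1 CPM in GFP cells and 114 to 401 CPM in scramble embryos, with no overlap. In the other direction Rpl3l, with few counts in embryos, held a share 12.0 times lower there and Rps12 one 6.58 times lower. Rpl12 followed with a share 4.63 times lower, Rpl7a 3.59 times and Rpl10a 3.55 times. The values of Rps12 and Rpl12 are uncertain, since pseudogene copies held 99.8 and 81.0% of the counts of gene and copies together. Rps2 alone made up 6.29 ± 0.11% of ribosomal protein counts in GFP cells and 2.25 ± 0.66% in scramble embryos, and Rplp0, the stalk base, 5.99 ± 0.14% and 2.31 ± 1.19%.

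Rpl22l1 came closest to the level of its parent gene in scramble embryos, while in Klf5 siRNA embryos and in ESCs its ratio to the parent was several times lower. The ratio of a paralog to its parent within a library does not depend on library scaling. Rpl22l1 (ENSMUSG00000039221, chromosome 3, 28805436 to 28807424, plus strand, mm10) encodes a paralog of the RNA-binding large-subunit protein of Rpl22 (ENSMUSG00000028936, chromosome 4, 152325742 to 152334071). Scramble embryos held 33.3 to 276 CPM of Rpl22l1 with a median of 179, and Klf5 siRNA embryos 1 to 6 held 135, 64.8, 34.2, 39.0, 64.7 and 35.1 CPM. Scramble embryos 5 and 6, at 33.3 and 45.6 CPM, account for the overlap, since the other 8 held at least 138 CPM. The ratio per kilobase to Rpl22 was 0.347 to 0.611 in scramble embryos (mean 0.424 ± 0.080 SD, n = 10), with embryos 5 and 6 at 0.352 and 0.347. It was 0.0733 to 0.127 in Klf5 siRNA embryos (mean 0.0923 ± 0.021 SD, n = 6), and the groups did not overlap. The highest of the 6, at 0.127, was embryo 1, the embryo with control-level Klf5. Rpl22 itself ranged from 81.3 to 507 CPM in scramble embryos and from 286 to 908 CPM in Klf5 siRNA embryos. In ESCs the ratio was 0.0690 and 0.0915 with GFP and 0.0873 and 0.0855 with Klf5, near the values of the Klf5 siRNA embryos and with the 2 ESC groups overlapping.

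Rps27l (ENSMUSG00000036781, chromosome 9, 66946086 to 66949516, plus strand), a p53-responsive paralog of Rps27, was the more abundant of its pair in every embryo library and the less abundant in every ESC library. Its ratio per kilobase to Rps27 was 0.589 to 0.732 in the 4 ESC libraries, 3.09 ± 0.66 (SD, n = 10, range 2.01 to 4.24) in scramble embryos and 3.63 ± 0.71 (SD, n = 6, range 2.45 to 4.37) in Klf5 siRNA embryos. The 2 embryo groups overlapped over most of their ranges. In level, Rps27l held 218 and 200 CPM in GFP cells, 447 to 3170 CPM in scramble embryos with a median of 2113, and 1769 to 5406 CPM in Klf5 siRNA embryos with a median of 4243.

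Rpl39l, best known from the male germ line, held 2.43 to 4.47 CPM in ESC libraries. In scramble embryos it held 42.4 to 240 CPM with a median of 179, and in Klf5 siRNA embryos 224 to 646 CPM with a median of 371, so that 1 Klf5 siRNA embryo lay within the scramble range. Its ratio per kilobase to Rpl39 was 0.0123 to 0.0246 in ESCs, 0.241 ± 0.113 (SD, n = 10) in scramble embryos and 0.212 to 1.44 with a median of 0.332 in Klf5 siRNA embryos. The value of 1.44 came from embryo 3, and the other 5 reached at most 0.426, within the scramble range of 0.105 to 0.431. Rpl7l1, a paralog of Rpl7 linked to ribosome assembly, held 64.1 and 68.6 CPM in GFP cells and 91.1 and 66.3 CPM in Klf5-overexpressing cells. In embryos Rpl7l1 held 75.05 to 243 CPM with scramble siRNA and 214 to 568 CPM with Klf5 siRNA, while its ratio to Rpl7 overlapped (0.0473 to 0.369 and 0.0876 to 0.292). Rpl10l held 0.0215 to 0.122 of the level of Rpl10 in scramble embryos and 0.0104 to 0.0794 in Klf5 siRNA embryos. This ratio leaves out the counts on pseudogene copies of Rpl10, which differed between the embryo groups. With copies added to their genes, Rpl10 held 1549 ± 726 CPM in scramble and 2584 ± 1035 CPM in Klf5 siRNA embryos (mean ± SD). Rpl10l held 71.2 ± 22.6 and 102 ± 51.7 CPM in the same fit. Rpl3l held 2.82 to 3.98 CPM in ESCs and had a count in 2 of 10 scramble embryos and 1 of 6 Klf5 siRNA embryos, at most at 0.667 CPM.

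**Figure D3:**
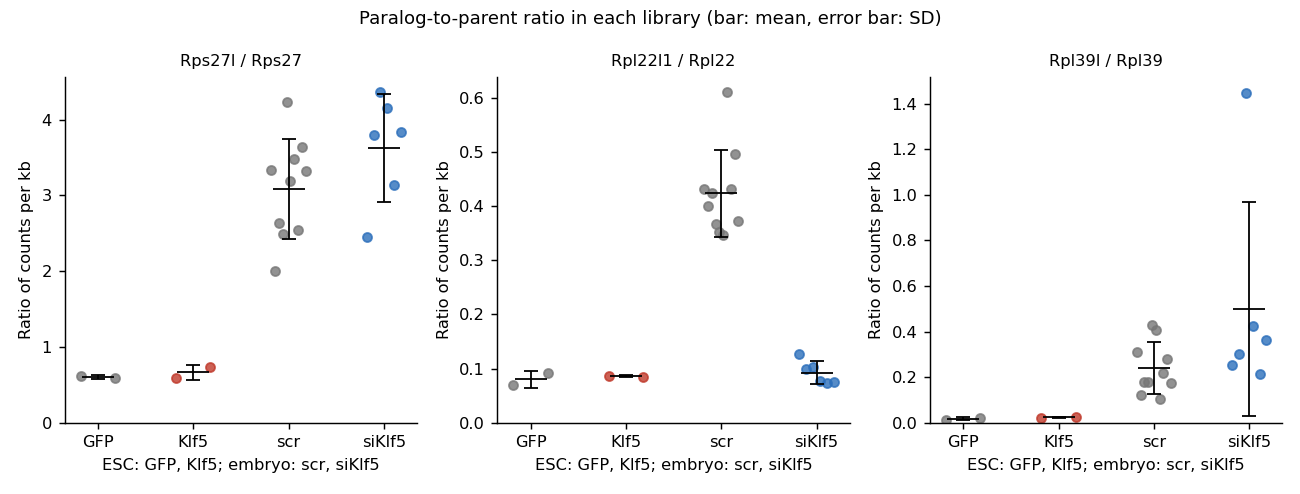
Ratio of counts per kilobase of a paralog to its parent gene in each library (points), with group mean (bar) and SD (error bar), for ESCs with GFP or Klf5 and embryos with scramble siRNA (scr) or Klf5 siRNA (siKlf5). Rpl22l1 to Rpl22 separates the embryo groups (0.347 to 0.611 against 0.0733 to 0.127), Rps27l to Rps27 separates embryos from ESCs, and 1 Klf5 siRNA embryo at 1.44 sets the spread of Rpl39l to Rpl39.

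The ESC comparison asks which ribosomal protein transcripts change when Klf5 is raised. None passed the test, and most stood slightly lower with Klf5. All 83 genes passed the filter on low counts, and their median log2 fold change was −0.26, a 1.20-fold lower level, against −0.0025 over all 15968 genes tested. 79 were below 0 (50.4% of all genes tested were) and 4 above (49.6%), the latter being the paralogs Rpl10l, Rpl39l, Rpl3l and Rpl7l1. By edgeR's quasi-likelihood test with Benjamini-Hochberg adjustment 0 were called higher and 0 lower, against backgrounds of 1.67% and 1.11%. At an unadjusted p under 0.05, 23 were lower and 1 was higher, against 10.8% and 12.4%. DESeq2 called 13 lower and 0 higher, against 4.64% and 5.82%. Klf5 and GFP libraries did not overlap for 45 lower genes, against 27.4% of all genes tested, and for 1 higher gene, Rpl10l, against 28.9%.

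The library level differed within each ESC group as well. The median of the genes' log2 levels relative to the GFP mean was 0.11 and −0.11 in GFP libraries 1 and 2 and −0.35 and −0.16 in Klf5 libraries 1 and 2. The second Klf5 library thus lay close to the second GFP library. The median fold change was −0.13 without GFP 1, −0.16 without Klf5 1 and −0.37 without GFP 2. Fibroblast markers, of the feeder cells, summed to 670 to 848 CPM with GFP and 1193 to 1198 CPM with Klf5, and all 9 had counts in both groups. Most of this sum was Col1a1 (398 ± 82.4 and 631 ± 22.7 CPM, mean ± SD) and Col1a2 (197 ± 22.8 and 338 ± 21.3 CPM). Col3a1, Col6a1, Thy1 and Postn also stood higher with Klf5, while Dcn and Fbn1 stood lower. Lum did not pass the filter on low counts. Trophectoderm markers summed to 719 to 1651 CPM with GFP and 188 to 555 CPM with Klf5, and all 7 had counts in both groups. Most of that sum was Krt8 (599 ± 360 and 189 ± 152 CPM, mean ± SD) and Krt18 (541 ± 291 and 130 ± 109 CPM). Gata3 and Elf5 also stood lower with Klf5, while Eomes and Tead4 stood higher and Cdx2 was near level (log2 fold change 0.04 ± 0.40 SE). Primitive endoderm markers summed to 37.7 to 42.8 and 100 to 223 CPM, and pluripotency markers to 3938 to 3972 and 4741 to 5147 CPM. The part of these cells in the ribosomal protein levels was not tested.

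Among single genes, Rpl10l had the smallest p of those above 0, at 20.2 and 22.3 CPM against 25.6 and 27.8 CPM (0.33 ± 0.14, edgeR adjusted p = 0.210). Rps27a, which encodes ubiquitin fused to a small-subunit protein, held 481 and 480 against 373 and 371 CPM (−0.37 ± 0.11, edgeR adjusted p = 0.108). Rpl5 and Rpl11 encode the proteins that bind Mdm2 when ribosome assembly fails. Rpl5 held 112 and 99.9 against 73.3 and 82.8 CPM (edgeR adjusted p = 0.094), while Rpl11 overlapped, at 1877 and 1621 against 1341 and 1733 CPM (edgeR adjusted p = 0.543). Pseudogene copies held 93.2% of the counts of Rpl5 and its copies. Together with them Rpl5 held 759 and 736 against 561 and 539 CPM. Rps6, the target of the S6 kinases, held 1925 and 1626 against 1426 and 1496 CPM (−0.28 ± 0.14, edgeR adjusted p = 0.280). Rps12 had the lowest fold change of the 83, −0.89 ± 0.37, on levels of 1.58 to 4.25 CPM, and with 1 library left out the value was −1.29 to −0.36. Together with its pseudogene copies Rps12 held 1555 and 1348 against 1124 and 1204 CPM, a log2 fold change of −0.32. The stalk genes Rplp1 and Rplp2 overlapped between groups, at 6214 and 5545 against 4627 and 5914 CPM and at 2877 and 2649 against 2122 and 2706 CPM. As a share of ribosomal protein counts, Rpl41 was close between the ESC groups, at 2.36 ± 0.05% with GFP and 2.40 ± 0.02% with Klf5. Other members differed, with Rpl10a at 0.844 ± 0.010 and 0.720 ± 0.008% and Rps29 at 1.24 ± 0.03 and 1.39 ± 0.002%.

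The embryo comparison sets Klf5 siRNA against scramble siRNA. Most ribosomal protein transcripts stood higher in Klf5 siRNA embryos, by about 2-fold at the median, and Rpl22l1 stood lower. Rpl3 also had a fold change below 0, but it was not called and its levels overlapped between groups. 81 of the 83 genes passed the filter on low counts. Rps12 and Rpl3l did not, with at most 2.06 and 0.667 CPM in any embryo. The median log2 fold change of the 81 was 1.04 (2.05-fold), against −0.02 over all 12385 genes tested, with 1.09 over 50 large-subunit and 0.93 over 31 small-subunit genes. 79 were above 0 (49.1% of all genes tested were) and 2 below (50.9%). edgeR called 55 of the 81 higher, against a background of 11.7%, and 1 lower, Rpl22l1, against 7.94%. DESeq2 called 59 of 82 higher, against 13%, and 1 lower, against 10.2%. 22 were higher in all 6 Klf5 siRNA embryos than in all 10 scramble embryos, against 2.94%, and 0 were lower in all, against 1.99%. The choice of the set rests on these embryos, so nothing is read from these counts beyond their description.

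**Figure D4:**
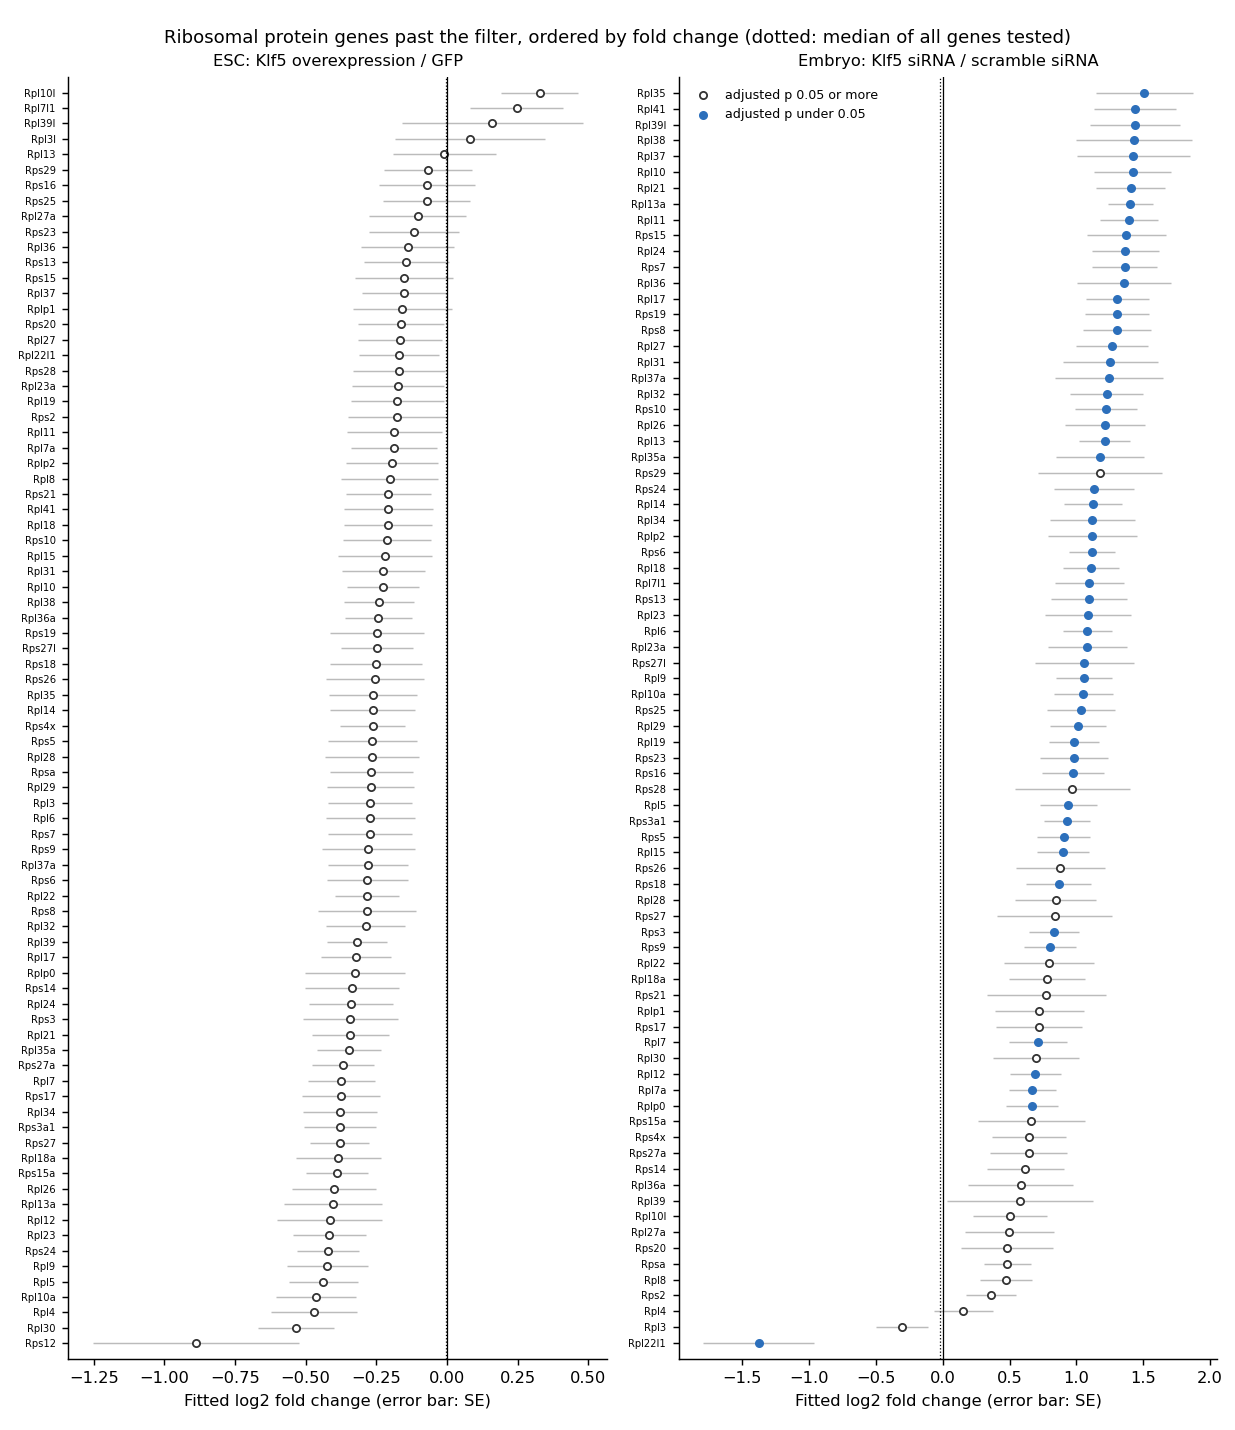
Fitted log2 fold change with SE of ribosomal protein genes past the filter, in ESCs (left, 82 genes plotted) and in embryos (right, 80 genes plotted), ordered by size, with filled points for an edgeR adjusted p under 0.05 and a dotted line at the median of all genes tested. In ESCs 78 points lie below 0 and none is filled, and in embryos 78 lie above 0 with Rpl22l1 at −1.38 as the lowest.

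Rpl41 (1.44 ± 0.31) held 787 to 4703 CPM with a median of 3356 in scramble embryos and 5030 to 10712 CPM with a median of 8537 in Klf5 siRNA embryos, without overlap. Rpl35 (1.51 ± 0.36), Rpl38 (1.43 ± 0.43) and Rpl37 (1.43 ± 0.42), small large-subunit proteins, overlapped between groups. Rpl38 for example held 153 to 1377 CPM with scramble and 607 to 4479 CPM with Klf5 siRNA.

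Rps6 had narrow and separate ranges, at 742 to 1307 CPM (median 1003) in scramble embryos and 1937 to 2328 CPM (median 2233) in Klf5 siRNA embryos, a log2 fold change of 1.12 ± 0.17. Rpl11 held 233 to 722 CPM and 785 to 1311 CPM without overlap (1.39 ± 0.22). Rpl5 held 48.8 to 97.4 CPM and 94.7 to 179 CPM with a narrow overlap (0.94 ± 0.21). Together with its pseudogene copies Rpl5 held 1375 ± 259 and 2390 ± 496 CPM (mean ± SD). Rplp0 held 912 to 1936 CPM with a median of 1299 in scramble embryos and 1652 to 2830 CPM with a median of 2034 in Klf5 siRNA embryos (0.67 ± 0.19). Rps27a held 426 to 2085 CPM and 1302 to 2717 CPM, with a fold change of 0.64 ± 0.29 and ranges that overlapped.

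At the low end stood Rpl22l1 and 5 members with long coding sequences. Rpl3, a protein of the peptidyl transferase centre, held 610 to 1191 CPM with a median of 821 in scramble embryos and 468 to 847 CPM with a median of 704 in Klf5 siRNA embryos (−0.30 ± 0.19). As a share of ribosomal protein counts, Rpl3 held 0.842 to 2.71% in scramble embryos and 0.381 to 0.684% in Klf5 siRNA embryos, with no overlap. That share does not depend on scaling, but it falls for any member that rises less than the family. The mean shares of Rpl4 (1.74 and 0.840%) and Rps2 (2.25 and 1.39%) fell too, although their fold changes were above 0. Rpl4 stood at 579 to 1408 and 808 to 1229 CPM (0.15 ± 0.22) and Rps2 at 914 to 1908 and 1368 to 2041 CPM (0.36 ± 0.18). Rpl8 (0.47 ± 0.19) and Rpsa (0.48 ± 0.17), which encodes the small-subunit protein also known as the laminin receptor, had ranges that overlapped. Rpl22l1 was the lowest, at −1.38 ± 0.42, and it was no longer called when any 1 of Klf5 siRNA embryos 3, 4 or 6 was left out (−1.25 to −1.28). Without scramble embryos 5 and 6 the value was −1.68, and without Klf5 siRNA embryo 1 it was −1.77. With the mitochondrial percentage as a covariate it was −0.09 and not called.

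The size of the embryo difference moved with the embryos and the scaling used. Relative to the scramble mean, the median log2 level of the family was 1.58, 1.03, 0.44, 0.77, 1.31 and 1.26 in Klf5 siRNA embryos 1 to 6. In scramble embryos it ranged from −1.19 (embryo 5) to 0.70 (embryo 10), above the value of Klf5 siRNA embryo 3. Without Klf5 siRNA embryo 1 the median fold change was 0.95 with 50 genes called higher against a background of 11%, and without scramble embryos 5 and 6 it was 0.85 with 56 against 12.8%. With the mitochondrial percentage as a covariate it was 1.54, with 64 called higher against 9.25% and 0 lower against 7.52%. With total counts in place of TMM scaling, the median of all genes moved to −0.43 and that of the family to 0.62, with 33 called higher and 2 lower against backgrounds of 5.99% and 17.7%. The family median lay 1.06 above that of all genes with TMM and 1.05 above it with total counts. Trophectoderm markers summed to 2171 to 8217 CPM in scramble embryos and 167 to 2379 CPM in Klf5 siRNA embryos, and all 7 had counts in both groups. Primitive endoderm markers summed to 324 to 596 and 178 to 507 CPM, and pluripotency markers to 231 to 620 and 215 to 522 CPM. Within the pluripotency list Pou5f1 (1.12 ± 0.44) and Nanog (0.88 ± 0.34) stood higher with Klf5 siRNA, and Sox2, Zfp42, Esrrb and Tdgf1 lower. The part of cell type proportions in the ribosomal protein levels was not tested.

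Short genes as a class stood higher in Klf5 siRNA embryos, and ribosomal protein genes are short. Among 11949 coding genes tested, the decile with the shortest coding sequence (up to 489 bases) had a median log2 fold change of 0.81 and the longest decile one of −0.36. 47 of the 81 ribosomal protein genes lay in the shortest decile. The 1156 other genes of that decile had a median of 0.78, and 36.1% of them were called higher. The ribosomal protein genes in that decile had a median of 1.08, and the 34 outside it one of 0.94. The 24 ribosomal protein genes with over 600 coding bases had a median of 0.90. Each library's trend with transcript length, rather than coding length, was also fitted and removed as an offset. The family median was then 0.34 against 0.09 for all genes, with 63 genes above 0 and 18 below. With this offset 20 were called higher and 2 lower against backgrounds of 10.5% and 4.9%, the 2 being Rpl22l1 (−2.15) and Rpl3 (−0.65). In ESCs the shortest decile had a median of −0.07, and the offset moved the family median from −0.26 to −0.11. What underlies the trend with length was not tested.

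**Figure D5:**
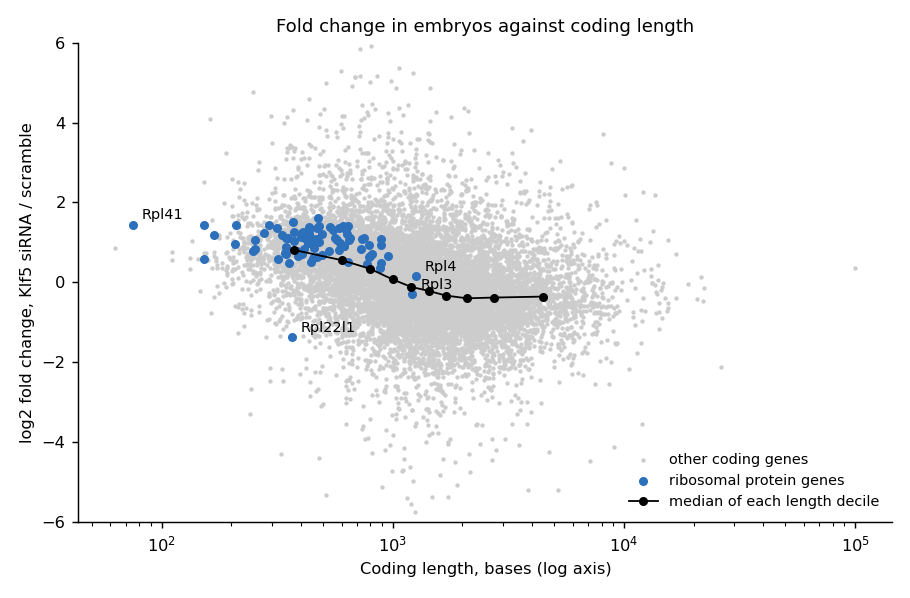
Fitted log2 fold change of each coding gene in embryos (y axis) against coding length in bases (x axis, log scale), with ribosomal protein genes in blue, other genes in grey and the median of each length decile in black. The black line falls from 0.81 in the shortest decile to −0.36 in the longest, most blue points lie on or above it, and Rpl22l1 lies below it. 17 genes beyond a log2 fold change of 6 in either direction are outside the axis.

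The fold changes of the 81 genes in ESCs and in embryos, which come from separate libraries with no shared controls, had a Spearman correlation of 0.08, given as a description.

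Other genes of the translation machinery were read from lists of known members. 4 ribosomal proteins outside the symbol rule were read, among them Fau, which is made as a fusion to a ubiquitin-like protein, Rack1, a scaffold on the small subunit, and Rpl36al. In embryos all 4 were called higher, with a median of 0.95, against 11.7% of all genes tested. Fau had 747 ± 287 CPM in scramble and 1557 ± 437 CPM in Klf5 siRNA embryos (1.06 ± 0.26, edgeR adjusted p = 0.0081). With the length offset 0 of the 4 were called higher, against 10.5% of all genes. Without Klf5 siRNA embryo 1 the 4 had a median of 0.84 with 3 called higher, against 11%. Without scramble embryos 5 and 6 they had a median of 0.80 with 3 called higher, against 12.8%. In ESCs 0 of 4 passed, against 1.67% higher and 1.11% lower over all genes, with a median of −0.26.

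Of 38 ribosome biogenesis genes, 4 rose and 5 fell in embryos, shares near the 11.7% and 7.94% of all genes tested, with a median of 0.02 against −0.02 over all genes. Nhp2, of the pseudouridylation complexes, rose from 521 ± 143 to 1300 ± 256 CPM (1.32 ± 0.21, edgeR adjusted p = 0.000293), and the assembly factors Brix1 and Nip7 rose by 1.03 ± 0.23 and 0.85 ± 0.19 (edgeR adjusted p = 0.0045 and 0.0035). Snu13, a core protein of box C/D particles, rose by 0.98 ± 0.24 (edgeR adjusted p = 0.0065). Ubtf, a factor of RNA polymerase I, fell from 75.2 ± 9.98 to 36.7 ± 14.6 CPM (−1.04 ± 0.24, edgeR adjusted p = 0.0056). The others that fell were the large-subunit assembly factors Pes1 (−1.11 ± 0.30), Bop1 (−0.87 ± 0.29) and Rrs1 (−1.29 ± 0.40) and the small-subunit factor Tsr1 (−0.85 ± 0.23). In ESCs 0 rose and 1 fell (1.67% and 1.11% of all genes), Nop56, of the same particles, from 266 ± 24.5 to 173 ± 6.73 CPM (−0.62 ± 0.12, edgeR adjusted p = 0.0451), with a list median of −0.10.

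The list of translation factors known for a TOP start has 16 genes, and also holds other proteins, namely Naca, Btf3, Tpt1 and Hnrnpa1. The starts of these 16 genes were not examined here. Of the 16, 3 rose and 1 fell in embryos, beside 11.7% and 7.94% of all genes. The list median was −0.03, beside 1.04 for the ribosomal protein genes. Naca and Btf3, the alpha and beta subunits of the nascent-chain-associated complex, rose by 1.05 ± 0.17 and 1.08 ± 0.18 (edgeR adjusted p = 0.000407 and 0.000413), and Eif3k by 1.07 ± 0.27 (edgeR adjusted p = 0.0096). Eef1a1, the elongation factor that brings aminoacyl-tRNA to the ribosome, fell by 0.50 ± 0.17 on the log2 scale (edgeR adjusted p = 0.0437). The difference between the 2 lists was not tested. In ESCs 0 of 16 passed, against 1.67% higher and 1.11% lower over all genes, with a median of −0.32. The gene with the smallest p was Pabpc1, at 1420 ± 32.0 against 1027 ± 91.5 CPM (−0.47 ± 0.13, edgeR adjusted p = 0.0974). Of 15 genes of the mTORC1, LARP1 and MYC control of translation, 2 rose and 2 fell in embryos beside 11.7% and 7.94% of all genes, shares near those of the list. Eif4ebp1, an inhibitor of translation initiation that mTORC1 switches off, rose from 371 ± 146 to 1038 ± 308 CPM (1.48 ± 0.27, edgeR adjusted p = 0.0011). Rheb, the activator of mTORC1, rose by 0.77 ± 0.26 (edgeR adjusted p = 0.0380). Max, the partner of MYC, fell by 1.20 ± 0.38 on the log2 scale (edgeR adjusted p = 0.0300), and Mycn, a MYC family member, by 1.58 ± 0.53 (edgeR adjusted p = 0.0396). In ESCs 0 rose and 1 fell (1.67% and 1.11% of all genes). The latter was Tsc1, an inhibitor of Rheb, from 112 ± 13.5 to 61.3 ± 0.28 CPM (−0.87 ± 0.12, edgeR adjusted p = 0.0295). The 7 snoRNA host transcripts of the TOP class were not analysed here.

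Pseudogene copies limit how exactly single members were counted. 248 genes outside the set had at least 50% of their own 31-base words in a ribosomal protein gene, and 66 of the 83 genes had such a copy. A median of 22.0% of the words of a ribosomal protein gene occurred in other genes. Copies took 1.01 to 1.32% of counts in ESCs and 0.263 to 0.790% in embryos. For 4 genes the copies held over 50% of the counts of gene and copies together, namely Rps12 (99.8%), Rpl5 (93.2%), Rpl12 (81.0%) and Rpl27 (51.0%). The low ranks of Rps12, Rpl5 and Rpl12, and their values without copies, are therefore uncertain. The copy of Rpl10 named Rpl10-ps3, whose words lie to 96.2% in Rpl10, stood at 689 CPM in scramble and 79.3 CPM in Klf5 siRNA embryos on average. With the copies added, the fold change of Rpl10 went from 1.42 to 0.74 and was no longer called, while 57 of 82 genes were called higher, against 12.1%, with a median of 1.07. Copies held 0.105% of the counts of Rps25 and its copies, and Rps27l and Rpl39l had none, and Rpl22l1 had 1 with 1.06%.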

How the data were processed

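Polyadenylated RNA was measured in 4 ESC and 16 embryo libraries. The authors deposited estimated counts (expected counts) for each Ensembl gene, with no library scaling, and the submitters' processing notes name kallisto 0.46 and the mm10 build. Per the labels' protocols, ESC cDNA was made with TruSeq v2 reagents and embryo cDNA with the SMARTseq-V4 kit. The sources used here do not tell how transcripts were summed to genes. 29831 of 30265 identifiers matched a GENCODE M21 symbol (GRCm38, the mm10 assembly) and 434 did not. No sample was left out.

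Counts were rounded (totals changed by at most 0.000756%), filtered with filterByExpr (lowest count 10), given TMM factors and fitted in edgeR 4.0.16 (R 4.3.3) with the robust quasi-likelihood method, adjusted by Benjamini and Hochberg over all genes at 0.05, for ESCs (2 against 2) and embryos (6 against 10) separately. The common biological coefficient of variation was 0.163 in ESCs and 0.739 in embryos. CPM use scaled library sizes and shares use total counts. Amplified reads are not independent molecules. The steps were tested on simulated data.

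The members, gene lists and tests were chosen with earlier results of these data known. Genes named are the extremes of each comparison, the paralogs with their parents, stalk, ubiquitin-fused and signalling members, the 4 highest and lowest per kilobase in each control group, and up to 3 called genes (or the smallest p) per list. Not every gene this rule names is reported here. Rps25, Rps20, Rpl7a, Rpl10a, Rpl27, Rpl10-ps3, Snu13, Ubtf, Pes1, Bop1, Rrs1, Tsr1, Eef1a1 and Mycn were named after their values were seen. Alternatives were RLE and upper quartile scaling, scaling without ribosomal protein and mitochondrial genes, DESeq2 1.42.0, other filters, a length offset (transcript length, lowess span 0.3), replicate block, mitochondrial covariate and left-out libraries. Added after seeing the data were total counts, merged copies, crossed ESC numbers and leaving out scramble embryos 5 and 6.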

Additional observations from a re-analysis of the deposited data

Results flagged for a closer look

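80 groups of values of the named genes and ratios were searched for a sample far from its group, and 7 were found, where chance gives about 1 in 20. In Klf5 siRNA embryos, Rpl22l1 had 1 high value of 134.8 CPM (embryo 1, next 64.8 CPM), Rpl7l1 had 1 of 568.1 CPM (embryo 3, next 309.7 CPM) and Rps12 had 1 of 2.06 CPM (embryo 4, next 0.658 CPM). The ratio per kilobase of Rpl39l to Rpl39 had 1 high value of 1.44 (embryo 3, next 0.426). Rpl3l was above 0 in 1 Klf5 siRNA embryo, at 0.263 CPM and a ratio to Rpl3 of 0.000344, and its highest ratio in scramble embryos was 0.000968 (next 0.000494). All values of Rpl3l in embryos rest on few counts.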

How the results depend on the processing

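Direction was checked for the family medians and for the 34 ribosomal protein genes under the naming rule. No called value among these changed direction under any alternative run. Other called genes were not checked singly. With the length offset 18 of the 81 genes in embryos lay below 0, against 2 in the main fit. In ESCs, DESeq2 and the replicate block with crossed numbers each called 13 ribosomal protein genes lower, against 0 (4.64 and 4.24% of all genes), and the length offset gave a median of −0.11. With 1 library left out the median was −0.37 to −0.13. In embryos the number called higher was 20 with the length offset, 34 with the replicate block and 33 with total counts (10.5, 5.35 and 5.99% of all genes), and 50 to 57 when 1 embryo was left out (10.2 to 12.5% of all genes, median 0.95 to 1.11). The number called lower was 2 with the length offset and with total counts (4.90 and 17.7% of all genes). It was 0 with the replicate block and in its 12 embryos without the block (2.41 and 4.07% of all genes). It was 0 too with the mitochondrial covariate and without Klf5 siRNA embryos 2 and 4 (7.52 and 5.63% of all genes). When 1 embryo was left out it was 0 to 1 (6.28 to 7.80% of all genes). The median was 0.34 with the length offset. Same-numbered libraries correlated at −0.17 in ESCs, where 2 libraries per group leave only 1 value. In embryos they correlated at −0.15 to 0.13, and 1 of 6 correlated best with its own number. The labels do not tell whether the replicate numbers pair the samples, and these values cannot decide it. The ESC block with the given numbers called 0 lower (0.326% of all genes). With pseudogene copies the share of counts was 13.8% with GFP and 12.4% with Klf5. Per kilobase it was 26.8, 25.3, 11.6 and 17.3% in GFP, Klf5, scramble and Klf5 siRNA libraries. Group means without 1 library were 12.0 to 13.1% with GFP and 10.7 to 12.0% with Klf5. The causes of these changes were not tested. Counts in the other gene lists moved too. In ESCs DESeq2 called 2 biogenesis genes higher and 3 lower (5.82 and 4.64% of all genes). It also called 2 genes of the translation factor list and 2 regulators lower. In embryos the length offset left 0 of the ribosomal proteins outside the symbol rule higher (10.5% of all genes). It left 2 biogenesis genes and 0 regulators lower (4.90% of all genes). 0 genes of the translation factor list were lower with RLE scaling (7.65% of all genes). Without Klf5 siRNA embryo 1, 2 of that list and 1 regulator were lower (7.79% of all genes). Without scramble embryos 5 and 6, 2 of that list were lower (9.81% of all genes). Depth limits Rpl3l, whose embryo values lie near the level of 3 counts.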
